A study of Rattus norvegicus with 4 samples.

Results

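A set of 10 genes of the IL-6, IL-10 and IL-12 cytokine systems were described in NR8383 cells, a macrophage line derived from rat lung lavage, after exposure to titanium dioxide particles. They were the 4 cytokine genes Il6, Il10, Il12b and Lif, the 4 receptor genes Il6r, Il6st, Il10ra and Il10rb, and Stat3 and Socs3, which act downstream of these receptors. They were chosen by name, through the accession of each probe, and all 10 were among the 16579 named genes on the arrays, with 16 of the 45598 probes. The cells (passage 20, seeded in 25 cm2 flasks for 48 h) had received NRCWE001, a TiO2 material, at 3 cm2 of particle surface per cm2 for 4 h. There were 4 biological replicates by the study's design text, each on its own 1-colour array of 1 slide, so that culture and array cannot be told apart. Untreated cells were not analysed here, and no value below says whether the particles raised or lowered a transcript.

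These cytokines share a signalling route. IL-6 binds its receptor IL-6R (Il6r), and the pair engages the signal-transducing chain gp130 (Il6st), which LIF also uses together with its own receptor. IL-10 binds IL-10RA and recruits IL-10RB, while the p40 subunit encoded by Il12b is shared by IL-12 and IL-23. Janus kinases bound to gp130 and to the IL-10 receptor phosphorylate STAT3, which moves to the nucleus and induces, among others, SOCS3, an inhibitor that binds gp130 and shuts IL-6 signalling down. In macrophages Il6, Il10 and Il12b are known as genes that are nearly silent at rest and induced by bacterial products, whereas the receptor chains and STAT3 are present beforehand.

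The arrays were close to each other. Their 75th percentiles lay between 388 and 614 intensity units, no spot was saturated, and Pearson's r between pairs of arrays was 0.992 to 0.997 over 7570 genes, which are not independent replicates. The cells are labelled as a macrophage line, and 9 of 11 measured macrophage markers had signal well above background on all arrays. The share over all named genes was 45.7%. Cd68 and Csf1r were among the 9, and Marco and Adgre1 were not. Of markers of other cells, 0 of 8 were found for lung epithelium (Sftpa1 and Krt18 on replicate 4 alone, the other 6 on no array), 1 of 6 for lymphocytes (Lck, with Cd3d on 3 arrays), 1 of 7 for fibroblasts and endothelium (Cdh5) and 1 of 6 for granulocytes and mast cells (Camp).

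No cytokine gene among the members had signal well above background on any array, while 5 of the 6 receptor and signalling genes had it on all. A gene counted as detected if, on all 4 arrays, the scanner software marked at least 1 of its probes as well above background, which held for 45.7% of all named genes. The members detected were Il6r, Il6st, Il10rb, Stat3 and Socs3, and those not detected were Il6, Il10, Il12b, Lif and Il10ra, each on 0 arrays. When detection on 1 array sufficed, the same 5 members counted, beside 51.8% of all named genes, so no member was found on some arrays only. When every probe of a gene had to be detected, 4 members counted (without Il6r), beside 40.4% of all named genes. In bulk RNA, few expressing cells and little RNA per cell cannot be told apart. The members were chosen with earlier results of these arrays known, so the split between roles is given as counts, without a test.

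**Figure D1:**
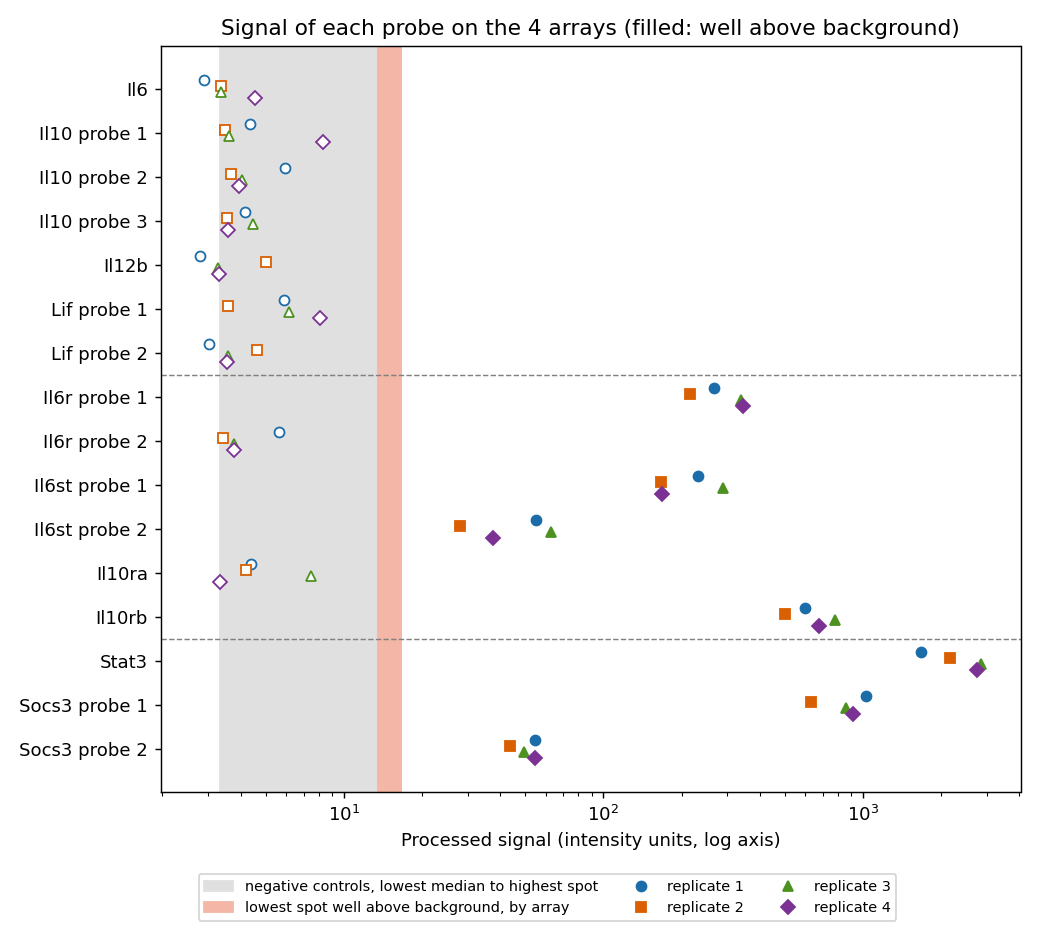
Processed signal (intensity units, log axis) of the 16 probes of the 10 genes on each of the 4 arrays, cytokine genes at the top, receptors in the middle and Stat3 and Socs3 at the bottom. Filled points are well above background. The 7 cytokine probes lie between 2.78 and 8.30 units, within or below the grey range of the negative controls (from their lowest median to their highest spot), and the detected probes at 28.0 units or more, above the red band of 13.5 to 16.6 units where detection begins.

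None of the cytokine transcripts reached the arrays' detection limits. Il6, a main inducer of the acute-phase response, had processed signals of 2.90, 3.36, 3.36 and 4.53 units on replicates 1 to 4. The lowest spot that counted as well above background had 13.5, 16.6, 16.6 and 16.3 units on these arrays. All 4 Il6 values thus lay below the weakest signal that would have been called on their array. Il6 and Il12b were measured by 1 probe each, and whether these probes can report their transcripts was not tested. For Il6r, 1 of 2 probes was well above background on all 4 arrays and the other on 0.

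Il12b, the p40 gene, had 2.78, 5.03, 3.28 and 3.30 units on replicates 1 to 4. Among the 308 negative control spots of each array, whose 95th percentiles were 5.58, 3.89, 4.39 and 4.78 units, its value on replicate 2 was the only one above that percentile. Such low values carry no order. Where a member's spot was not significantly above 0 (24 of 100 spot values), the processed signal was 0.993 to 1.27 times its own error, so it reads as a limit and not as a level.

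Il10, the anti-inflammatory cytokine gene, was measured by 3 probes, with signals of 3.47 to 8.30 units over 12 values. The highest was on replicate 4, where the other probes of the gene had 3.94 and 3.58 units. Lif, which codes for leukaemia inhibitory factor, was measured by 2 probes with 3.02 to 8.13 units over 8 values. Neither gene reached the highest negative control of its array (8.86 to 16.6 units) on any spot.

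Over the 7 cytokine probes, 8 of 28 values were above the 95th percentile of their array's negative controls. That is a larger share than among the controls themselves. Of these 8, 4 came from Lif, 3 from Il10, 1 from Il12b and 0 from Il6. With a more lenient flag, for signal significantly above 0, Lif alone of the cytokine genes counted as detected on all arrays, beside 55.3% of all named genes. That call joined different probes. The probe for NM_022196 passed on replicates 1, 3 and 4, and the probe for XM_008770359 on replicate 2, so that no single Lif probe passed on all 4.

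The regions upstream of Il6 and Il10ra are shown, as a view of the control regions of an undetected cytokine gene and an undetected receptor gene. RefSeq's rat assembly GRCr8 gave a 250-base window before a listed start for 7 of the 10 members, and these were the 2 genes whose window lay wholly outside the gene's annotated extent. The windows of Il6r, Il6st and Socs3 lay wholly inside the gene and those of Il10rb and Stat3 in part, so no motifs are reported for them. Both strands were searched for an NF-kB site (GGGA, any base, TTTCC), TGACGTCA (a cyclic AMP response element), TTNNGCAA (a C/EBP site), TTCNNNGAA (a STAT site), TATAAA and GGGCGG (a GC box), and capitals mark the matches, which did not overlap.
Il6, chr4:5894576-5894825, minus strand: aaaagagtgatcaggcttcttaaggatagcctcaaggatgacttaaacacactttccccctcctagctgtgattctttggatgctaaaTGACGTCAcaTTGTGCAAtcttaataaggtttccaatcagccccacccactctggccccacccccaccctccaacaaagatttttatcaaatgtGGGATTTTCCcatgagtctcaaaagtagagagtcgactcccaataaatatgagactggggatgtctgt
Il10ra, chr8:54474787-54475036, minus strand: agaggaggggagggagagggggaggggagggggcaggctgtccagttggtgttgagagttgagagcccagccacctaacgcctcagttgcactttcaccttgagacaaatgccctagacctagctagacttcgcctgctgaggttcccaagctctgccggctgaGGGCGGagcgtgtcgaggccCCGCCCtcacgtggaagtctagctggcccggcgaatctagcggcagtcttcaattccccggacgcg

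In the Il6 region the match to TGACGTCA began 162 bases before the start, that to TTNNGCAA 152 bases before it and that to the NF-kB site 68 bases before it. Of 19334 rat windows that lay wholly outside their gene, 1.42% held the first motif, 9.68% the second and 0.279% the third. In the Il10ra region GGGCGG, which 24.9% of these windows held, began 86 and 66 bases before the start. TTCNNNGAA (8.06% of these windows) and TATAAA (15.2%) were not in these letters of either gene. These are matches of letters in a short window and do not show that a factor was or was not bound.

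Of the receptor genes, Il6r, Il6st and Il10rb were detected and Il10ra was not. Levels are on a log2 scale, on which 0 stands for the signal at the 75th percentile of that array. They hold for the brightest probe of a gene, and a level is compared only with the same probe on other arrays, since probes differ in brightness.

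Il6r, the ligand-binding chain for IL-6, lay at -0.84, -0.85, -0.86 and -0.44 on replicates 1 to 4 (mean -0.75 ± 0.21, SD, n = 4). Replicates 1 to 3 were nearly equal and replicate 4 was higher. A single array stood apart by Dixon's ratio in 5.43% of all genes tested, and Il6r was the only detected member among them. Its SD was 1.20 times the prior SD for genes of its level and was not called (limma prior variance, adjusted p = 0.991 over 7570 genes). Of the 8 epithelial markers, Sftpa1 (-3.79) and Krt18 (-4.13) were well above background on replicate 4 alone, and the other 6 on no array. Any link to the Il6r value was not tested. Without replicate 4 the SD of Il6r was 0.0065, and leaving out the array farthest from the mean had to lower it. The value rests on the probe for NM_017020, with 216 to 344 units, as the probe for the predicted transcript XM_006232587 was not well above background on any array (3.44 to 5.63 units).

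Il6st, which encodes gp130, lay at -1.05, -1.22, -1.09 and -1.47 on replicates 1 to 4 (mean -1.21 ± 0.19, SD, n = 4). A second probe of the same transcript, NM_001008725, was dimmer, at -3.13, -3.80, -3.29 and -3.64. Both probes were highest on replicate 1 and next on replicate 3, but the lowest array was replicate 4 for the first and replicate 2 for the second. The SD of the first probe was 1.04 times the prior SD and was not called (limma, adjusted p = 0.991).

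Il10rb, the accessory chain that IL-10 shares with IL-22 and the lambda interferons, lay at 0.32, 0.37, 0.35 and 0.53 (mean 0.39 ± 0.10, SD, n = 4). It was the steadiest of the detected members, with 1.16-fold between its highest and lowest array (limma, adjusted p = 0.991). Il10ra, the chain that binds IL-10 itself, had 4.38, 4.19, 7.47 and 3.34 units, all below the arrays' detection limits. Its single probe passed the lenient flag on 3 arrays, and 0.974% of negative controls were brighter on replicate 3. On replicate 4 the signal was not significantly above 0 and reads as a limit, with 87.3% of negative controls brighter. Of the pair that forms the IL-10 receptor, only the accessory chain thus had a transcript detected with these probes.

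Stat3, the transcription factor common to these receptors, was detected on all arrays and had the largest SD of the 5 detected members over the 4 arrays. Its processed signal was 1670, 2159, 2859 and 2740 units on replicates 1 to 4, which gave levels of 1.80, 2.48, 2.22 and 2.56 (mean 2.26 ± 0.34, SD, n = 4). Replicate 1 was the low array, at 0.46 below the mean, and the highest array was 1.69-fold above it.

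The SD of Stat3 was 2.27 times the prior SD for genes of its level, with an unadjusted p of 0.0104 by limma's prior variance and an adjusted p of 0.417, so it was not called. With a normexp background correction of the median spot signals 197 of 7568 genes were called, against 27 of 7570 in the test as reported. Stat3 was among the 197 (SD 0.45, limma adjusted p = 0.00276). Median signals are taken before the detrending over the array that the processed signal had. For Stat3 they were 1184, 1997, 2354 and 2295.5 units on replicates 1 to 4. The part of the missing detrending in this call was not tested. Without replicate 1 the SD of Stat3 was 0.18 (limma adjusted p = 0.986). On the same 3 arrays it was 0.25 for Socs3, 0.24 for Il6r and 0.19 for Il6st. Replicate 1 was the array farthest from the Stat3 mean, so leaving it out had to lower that SD. The others kept their own farthest array (replicate 4 for Il6r and Il6st, replicate 3 for Socs3), so this order depends on the array left out. The single Stat3 spot lies in column 2 of the array. On replicate 1, 6.08% of 9899 detected spots in columns 1 to 72 lay at least as far below their mean as Stat3 did, against 0.556% of 12945 spots in the other columns, and on replicates 2 to 4 between 0.664% and 1.51% did in either part. The part of array position in the Stat3 difference was not tested.

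Socs3, the feedback inhibitor, offered a look at measurement error, because its probe for XM_008768398 is printed on 10 spots. Its level was 1.10, 0.70, 0.48 and 0.98 on replicates 1 to 4 (mean 0.81 ± 0.28, SD, n = 4). On replicate 1, 8 spots without an outlier flag ranged from 1.02 to 1.15, and on replicate 4 10 spots ranged from 0.81 to 1.07. On replicate 2 they ranged from 0.55 to 0.80, and on replicate 3 from 0.36 to 0.56. The flagged spots of replicate 1, in columns 9 and 23, were lower than its other spots, at 0.93 and 0.99. The spots of replicates 1 and 4 therefore lay above all those of replicates 2 and 3, while replicates 2 and 3 overlapped slightly.

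**Figure D2:**
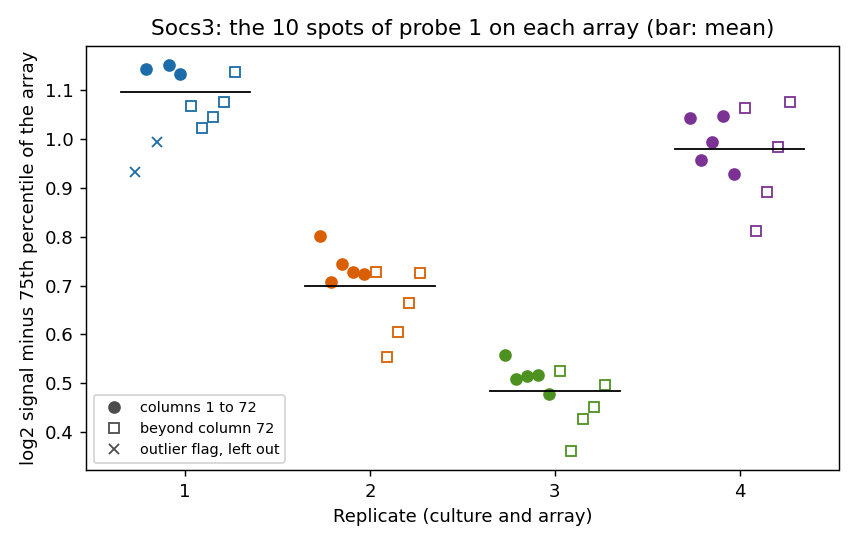
Level of Socs3 (log2, 0 at the 75th percentile of the array) on each of 10 spots of 1 probe, by array. Filled circles are spots in columns 1 to 72, open squares spots beyond, crosses spots with an outlier flag, and bars the mean without them. Spots of 1 array lie within 0.26 or less of each other, and the array means run from 0.48 to 1.10.

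The pooled SD between Socs3 spots of an array was 0.067, against 0.28 between the arrays. The same spot, in row 101 and column 125, was the lowest of those without an outlier flag on all 4 arrays, so the spot differences were in part shared. With the 5 spots beyond column 72 alone, the SD between arrays was again 0.28. A second probe, for NM_053565, lay at -3.14, -3.15, -3.64 and -3.10, and was also lowest on replicate 3. Against genes of like level the variance had an unadjusted p of 0.0444 and an adjusted p of 0.724 (limma prior variance), so Socs3 was not called. Spots of an array come from the same labelled sample. Their spread thus holds differences within an array, shared ones among them, and none between cultures.

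**Figure D3:**
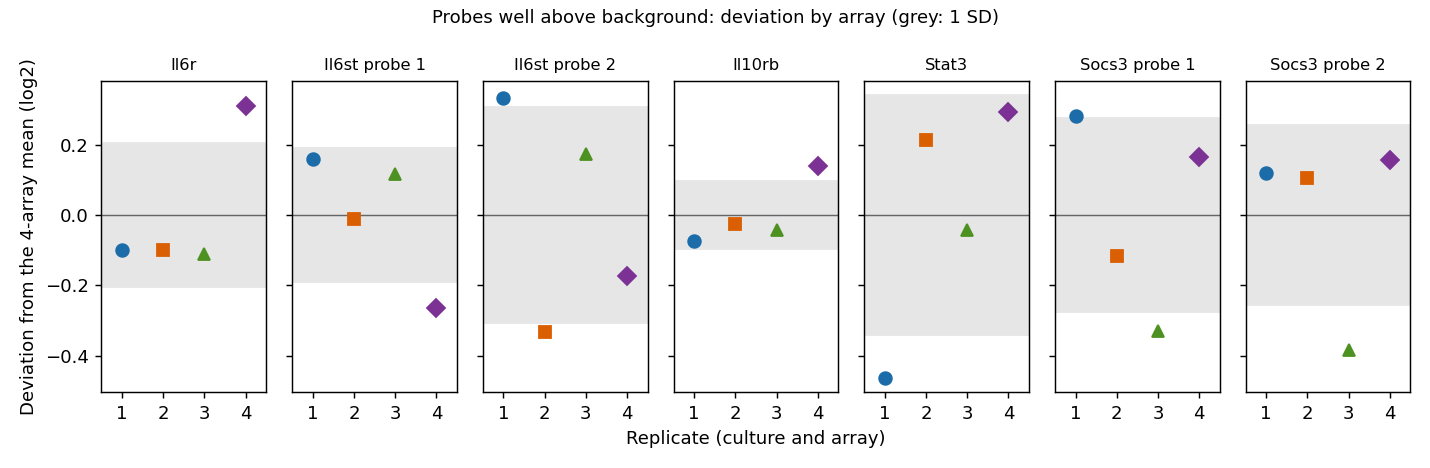
Deviation of each array from the mean of 4 (log2) for the 7 probes of 5 genes that were well above background, with 1 SD in grey. Il6r stands high on replicate 4, Stat3 low on replicate 1 (-0.46), and both Socs3 probes are lowest on replicate 3.

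None of the 5 detected members was called variable between the arrays, where 0.357% of 7570 genes were (limma prior variance, adjusted p under 0.05). At an unadjusted p under 0.05 there were 2, Stat3 and Socs3, where 6.47% of all genes were. Over the alternatives the unadjusted p of each lay on both sides of 0.05 (limma, Socs3 0.0126 to 0.156, Stat3 3.35e-05 to 0.292). The median SD of the 5 was 0.21, against 0.16 over all genes tested.

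Around the members, the cytokine and receptor genes of the same families were mostly not detected, and the genes of the shared signalling machinery mostly were. Of 10 other measured cytokine genes, 2 were detected, Osm (-3.95 ± 0.21, SD, n = 4), which codes for oncostatin M, another cytokine acting through gp130, and Ebi3 (-1.05 ± 0.26), the beta chain of IL-27. Il11, Cntf and Ctf1, other cytokine genes of the IL-6 family, were not, although Cntf passed on 1 array.

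Of 11 other receptor genes 1 was detected, Il20rb (-3.10 ± 0.25), a chain of the IL-20 receptors. Lifr, Osmr, Il11ra1 and Cntfr, whose products pair with gp130 for LIF, oncostatin M, IL-11 and CNTF, gave no signal well above background. Of the receptors that use gp130 and were measured here, IL-6R was thus the one whose own chain had a detected transcript.

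Janus kinases and the other STAT genes were detected in 9 of 10 cases. Jak1, the main kinase at gp130, lay at 2.30 ± 0.18, Jak2 at -3.88 ± 0.28, Tyk2 at -1.40 ± 0.16 and Jak3 at -2.33 ± 0.27 (SD, n = 4 each). The exception was Stat4, the factor through which IL-12 signals in lymphocytes. Genes for inhibitors and phosphatases were detected in 10 of 14 cases. Ptpn6, the phosphatase SHP-1 of blood cells, lay at 6.04 ± 0.10, while Socs1 and Socs2 reached that flag on 0 arrays, Pias1 on 1 and Socs6 on 2.

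Cish, a STAT5-induced relative of Socs3, lay at -1.03, -2.02, -2.31 and -2.30 on replicates 1 to 4. Replicate 1 was the high array, and the SD of 0.60 was the largest of that list (limma prior variance, unadjusted p = 0.00114, adjusted p = 0.164). The brightest Socs3 probe was also highest on replicate 1, but the second Socs3 probe was highest on replicate 4 (-3.10, against -3.14 on replicate 1). Stat3, measured by a single spot in column 2, was lowest on replicate 1.

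**Figure D4:**
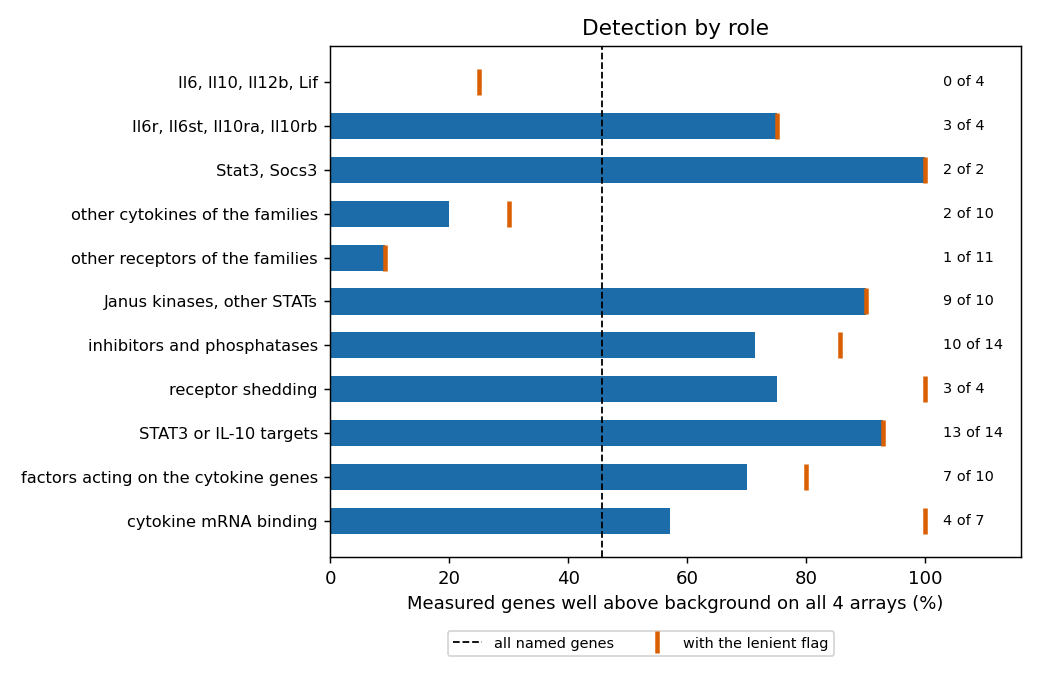
Share of measured genes well above background on all 4 arrays (blue bars, 0 to 100%), by role, with the number of genes at the right. Orange ticks give the share with the lenient flag, and the dashed line marks all named genes (45.7%). The cytokine members (0 of 4) and the other receptors (1 of 11) lie lowest, and Stat3 with Socs3 (2 of 2) and the STAT3 targets (13 of 14) highest.

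Genes known to be induced by STAT3 or by IL-10 in macrophages were detected in 13 of 14 cases. Bcl3, a regulator of NF-kB, lay at -0.39 ± 0.21, the kinase gene Pim1 at -3.70 ± 0.17, the IL-4 receptor gene Il4r at -2.53 ± 0.10 and the transcription factor gene Nfil3 at -0.64 ± 0.15 (SD, n = 4 each). Bcl2l1, a survival gene, had the largest SD (-3.13 ± 0.30), and Tnfrsf1b, a TNF receptor gene, was not detected. Most of these genes have other inducers too, so their presence says nothing about STAT3 activity here.

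Genes for proteases and cofactors of receptor shedding were detected in 3 of 4 cases. Adam17, which codes for the main sheddase of IL-6R, lay at -3.00 ± 0.27. The genes of its partners, Rhbdf1 and Rhbdf2, lay at -2.97 ± 0.30 and 1.65 ± 0.12. Adam10 was found on 3 arrays. Genes for transcription factors that act on Il6, Il10 or Il12b were detected in 7 of 10 cases. Rela, an NF-kB subunit, lay at 1.06 ± 0.08, Cebpb at 5.23 ± 0.20, the myeloid factor gene Spi1 at 1.72 ± 0.19, Irf5 at 2.74 ± 0.19 and Irf1 at 1.47 ± 0.24. Irf8, needed for Il12b in mouse macrophages, Maf, an activator of Il10, and Batf were detected on 0 arrays.

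Genes for proteins that bind cytokine mRNAs were detected in 4 of 7 cases, a share near the 45.7% of all named genes. Zc3h12a, the nuclease Regnase-1 that degrades Il6 mRNA, lay at -0.24 ± 0.23 and Zfp36l2 at 3.16 ± 0.31, whereas Arid5a, which stabilises Il6 mRNA, was not detected. Zfp36, the decay factor tristetraprolin, was found on 2 arrays and Rc3h2 on 3. In all, 49 of 80 measured genes of these 8 lists were detected, and 0 of 49 were called variable (limma, with 2 at an unadjusted p under 0.05). Over all genes, 45.7% of those measured were detected, and 0.357% of those tested were called and 6.47% reached that unadjusted p, so the counts of variable genes show nothing particular to these lists.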

How the data were processed

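Total RNA (integrity number above 7.5, 100 ng labelled with Cy3, per the labels' protocols) of 4 samples of 1 group was measured, with replicate numbers from the titles. The authors deposited Agilent Feature Extraction (11.0.1.1) output. Its processed intensity of a spot is, per the file headers, background-subtracted and detrended, without scaling across the set. The same tool is named in the submitters' processing notes. Other columns were the deposited flags and the median spot and background intensity.

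From these, levels were computed as log2 of the signal minus the 75th percentile of 58717 non-control spots. Spots with outlier flags (634 to 669 per array) were left out, spots of a probe were averaged, and the brightest probe represented a gene. Probes were named by accession through RefSeq's GRCr8 gene table (21109 of 45598). Unnamed probes may hold further probes of these genes. A probe was detected where the flag was set on over 0.5 of its spots.

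Variation between arrays was tested with R 4.3.3 and limma 3.58.1, as each variance (3 degrees of freedom) over a trended, robust prior (16.7 degrees of freedom), upper tail of F, Benjamini-Hochberg over 7570 genes. Precision is limited by having 4 arrays.

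The members and lists were chosen with earlier results of these data known. Outside the members, the text names the first 4 measured genes of a list, its exceptions in detection (at most 5) and its largest SD, with fewer for markers of other cells. Alternatives were other detection flags, probe rules, scalings, normexp (offset 50, on median signals, as mean spot signals were not used here), priors and filters, and each replicate left out. Scaling to detected probes' 75th percentile and spots beyond column 72 were added after seeing the data.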

Additional observations from a re-analysis of the deposited data

Results flagged for a closer look

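In 2 of 36 named genes detected on all arrays 1 replicate was separated from the rest, its gap to the nearest taking up more of the whole range than Dixon's 95% critical value for 4 samples allows. Chance flags about 5% of genes, and 5.43% of all genes tested stood apart in this way. Il6r was high on replicate 4, where the gap was 0.973 of the range. Its level there was -0.44, against -0.86 to -0.84 on the other arrays. Rela was low on replicate 3 (0.93, against 1.09 to 1.11 on the other arrays), with a ratio of 0.899. Over all 49 detected genes of the 8 lists, 4 were separated in this way. They were Rela and, outside the rule for named genes and chosen after their values were seen, Il1rn (0.862), Junb (0.844) and Mcl1 (0.835).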

How the results depend on the processing

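Of the detection counts, 3 moved by over 1.5 times under an alternative. With the lenient flag 1 cytokine member was detected in place of 0, and 7 genes of cytokine mRNA binding in place of 4. When detection on 1 array sufficed, 4 of the other cytokine genes counted in place of 2, while the member counts stayed at 0 and 5. Asking for every probe of a gene left 4 of the 6 receptor and signalling members, without Il6r. Leaving out any 1 replicate gave 0 cytokine members and 5 receptor and signalling members each time. The number of all genes called variable depended strongly on the settings. It was 27 in the test as reported, 197 with normexp, 0 after quantile normalization (491 at an unadjusted p under 0.05 by limma), 0 with detected probes' 75th percentile as scale (403 unadjusted), 135 without a detection filter, 0 with a prior without trend (437 unadjusted), 4 with a prior that was not robust, and 8 to 84 when a replicate was left out (8 without replicate 3, 9 without replicate 4, 84 without replicate 2). The cause was not tested. With normexp, on median signals without detrending, 1 member was called in place of 0, Stat3 (limma adjusted p = 0.00276). Over the other alternatives the limma adjusted p of Stat3 lay at 0.224 or above. No paired analysis was possible because there was 1 group. Levels are relative, and another scale moved all 5 members together, Stat3 between 0.70 and 2.98. Averaging detected probes moved Socs3 to -1.22 and Il6st to -2.34, and normexp moved Il6st to -0.90 and Stat3 to 1.82. The signal over background limits the cytokine genes, whose values all lay below the detection limits.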
